A study of Mus musculus with 45 samples.

Results

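The genes described here are 49 core components of the spliceosome, taken as a named list from the 18135 genes of the deposited expression table and grouped by their place in the machine. They were 7 Sm proteins, 7 LSm proteins, 7 proteins of the U1 and U2 particles or of U2AF, 9 SF3 factors, 7 PRPF factors, 7 further proteins of the U5 particle, the tri-snRNP or the Prp19 complex, and 5 SR proteins. The rule for membership uses no measured value, though the list was drawn up with earlier results of these data known. Each of the 49 passed the level required for testing, a mean of 10 normalized counts, in every region and genotype.

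The spliceosome removes introns from precursor messenger RNA and joins the exons. It is built anew on each intron from small nuclear ribonucleoprotein particles (snRNPs): U1 recognizes the 5′ splice site, U2 with its SF3A and SF3B subcomplexes pairs with the branch point, U2AF marks the 3′ splice site, and the tri-snRNP of U4, U6 and U5 then brings in the catalytic core. Sm proteins form a ring on the U1, U2, U4 and U5 RNAs, LSm proteins form a like ring on U6, and SR proteins bind exons and recruit the particles to nearby splice sites. Neurons use alternative splicing heavily, and the core components are made in all cells.

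Transcripts of the cortex (prefrontal, per the sample labels), hippocampus and striatum were sequenced from male C57BL/6J mice aged 13 weeks, with 5 samples for each of 3 genotypes and 45 samples in all. Wild-type (WT) mice were compared with mice that carried 1 (Shank3-HT) or 2 (Shank3-HM) copies of a Shank3 allele lacking exons 14 to 16. The allele is present in every cell of the mouse from conception. The samples are bulk tissue, so that fewer cells of a type and less RNA per cell cannot be told apart, and the labels do not say whether the 3 regions of a number came from 1 mouse, so p values measure the spread between these samples. Totals of the normalized counts ran from 26118607 to 29568983 per sample, and the sequencing depth behind them is not known.

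Shank3 itself followed the labels in every region. In the cortex its mean was 8005 ± 725 (SD, n = 5) normalized counts for WT, 6138 ± 373 for Shank3-HT and 4054 ± 285 for Shank3-HM mice. The same order held in the hippocampus (7944 ± 359, 5886 ± 225 and 3801 ± 144) and the striatum (12317 ± 606, 8725 ± 581 and 5735 ± 667), and the 3 genotypes did not overlap in any region. With limma and Benjamini-Hochberg adjustment Shank3-HM passed against WT in all regions, and Shank3-HT did not in the cortex (adjusted p = 0.288). In the striatum the adjusted p for Shank3-HT was 0.0494, and that call was lost in 9 of 10 fits without 1 sample and under 5 other alternatives. Marker genes followed the dissections, with summed markers of striatal spiny neurons between 187574 and 254959 normalized counts in the WT striatum and between 5967 and 7122 in the WT cortex. The lowest of these striatal sums was that of striatum WT replicate 5. It had 11129 for cortical projection neurons, where the median of its group was 3404. Striatum Shank3-HT replicate 3 (8777, group median 3332) and striatum Shank3-HM replicate 1 (8603, group median 4020) were also high for that list. Cortex Shank3-HM replicate 2 stood apart, with 50966 for the striatal list and 30555 for cortical projection neurons, where the other 4 Shank3-HM cortices had at least 50323. Summed choroid plexus markers reached 68474 in striatum Shank3-HT replicate 5, where the other 4 samples of that group had at most 1552. In the WT hippocampus these markers ran from 3145 to 123200, with the highest sum in replicate 4. The third library that stood apart was hippocampus WT replicate 1, through the spliceosome genes themselves, and the results that rest on these 3 libraries are given with and without them.

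The promoters below are shown because these 7 are among the members with the largest region differences described further on, 5 of them higher in the striatum and 2 of them (Sf3b6 and Prpf19) lower. Each run gives, 5′ to 3′ on the strand of the gene, the 250 bases before the RefSeq transcription start in GRCm38.p6. Capitals mark matches to the ETS motif CCGGAAG and the CCAAT box, searched on both strands. The runs lie at chr17:80207306-80207555 (minus strand) for Srsf7, chr10:93589659-93589908 (minus) for Snrpf, chr1:55027479-55027728 (minus) for Sf3b1, chr3:83055288-83055537 (plus) for Plrg1, chr11:4160104-4160353 (plus) for Sf3a1, chr12:4817358-4817607 (plus) for Sf3b6 and chr19:10894981-10895230 (plus) for Prpf19.
Srsf7: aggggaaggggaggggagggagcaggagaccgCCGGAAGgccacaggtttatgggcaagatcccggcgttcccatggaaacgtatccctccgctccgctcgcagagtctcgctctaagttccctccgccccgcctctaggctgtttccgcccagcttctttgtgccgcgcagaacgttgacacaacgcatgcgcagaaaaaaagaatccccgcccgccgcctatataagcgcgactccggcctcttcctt
Snrpf: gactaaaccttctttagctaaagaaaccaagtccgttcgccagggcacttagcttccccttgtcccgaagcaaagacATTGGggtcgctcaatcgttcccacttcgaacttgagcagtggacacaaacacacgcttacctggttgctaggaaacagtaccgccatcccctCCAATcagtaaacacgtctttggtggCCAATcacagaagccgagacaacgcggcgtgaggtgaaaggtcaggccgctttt
Sf3b1: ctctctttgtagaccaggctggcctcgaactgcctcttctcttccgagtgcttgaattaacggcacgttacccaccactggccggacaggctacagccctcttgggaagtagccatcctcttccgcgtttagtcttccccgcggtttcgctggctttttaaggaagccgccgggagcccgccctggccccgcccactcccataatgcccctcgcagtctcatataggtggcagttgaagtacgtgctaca
Plrg1: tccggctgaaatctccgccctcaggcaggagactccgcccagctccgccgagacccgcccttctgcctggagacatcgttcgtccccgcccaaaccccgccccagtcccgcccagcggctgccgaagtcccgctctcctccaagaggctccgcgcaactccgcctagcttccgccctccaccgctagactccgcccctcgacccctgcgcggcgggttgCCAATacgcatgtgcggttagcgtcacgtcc
Sf3a1: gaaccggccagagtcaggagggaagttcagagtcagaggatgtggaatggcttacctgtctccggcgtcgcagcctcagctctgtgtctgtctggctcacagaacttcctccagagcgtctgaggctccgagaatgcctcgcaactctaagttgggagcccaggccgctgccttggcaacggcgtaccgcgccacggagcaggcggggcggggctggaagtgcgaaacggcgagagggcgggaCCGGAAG
Sf3b6: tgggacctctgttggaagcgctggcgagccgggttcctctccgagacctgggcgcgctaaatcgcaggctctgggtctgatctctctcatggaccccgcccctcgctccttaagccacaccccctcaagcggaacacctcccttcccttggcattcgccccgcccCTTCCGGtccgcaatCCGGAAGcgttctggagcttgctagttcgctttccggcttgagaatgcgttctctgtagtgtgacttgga
Prpf19: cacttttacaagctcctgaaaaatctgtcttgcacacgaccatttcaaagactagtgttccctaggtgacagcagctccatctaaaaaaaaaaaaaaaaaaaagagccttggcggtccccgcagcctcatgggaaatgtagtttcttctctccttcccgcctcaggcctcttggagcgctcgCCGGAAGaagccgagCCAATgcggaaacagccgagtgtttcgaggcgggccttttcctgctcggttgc

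In the set of RefSeq promoter windows used here, each of 300 bases (250 before and 50 after the start), 40 of the 49 members were matched, with 47 windows in all. The promoters of Ddx23, Eftud2, Lsm4, Sf3b4, Sf3b5, Snrnp40, Snrpb, Snrpd1 and U2af2 were not analysed here. The ETS motif CCGGAAG lay in 38.3% of the members' windows, against 8.86% of all 32851 windows and 15.01% of the 15473 windows of genes that passed the level filter. The CCAAT box (CCAAT) lay in 44.7% of the members' windows, 37.4% of all windows and 37.3% of those at the filter, and a TATA box (TATAAA) in 8.51%, 13.6% and 7.54%. The other motifs searched, with the shares in the same order, were AAGATGGCG (YY1), in 6.38%, 1.40% and 2.52%, TGACGTCA (the cyclic AMP response element), in 8.51%, 1.79% and 2.82%, the NRF1 element, in 2.13%, 0.971% and 1.78%, the CGCG element, in 2.13%, 0.466% and 0.821%, and the ZNF143 element, in none of the members' windows, 0.286% and 0.556%. Beside the CCAAT box and the ETS motif these shares rest on 4 member windows or fewer each. The median GC content was 59.0% in the members' windows, 52.7% in all windows and 60.3% in those of genes at the filter. Of the 21 members with a window that were higher in the striatum than in the cortex of WT mice (below), 9 held the ETS motif, and of the other 19 members with a window 8 did. A match says only that these letters are present.

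Levels and spread differed between the members, also within a group. Per kilobase of the longest annotated transcript, the WT striatum had most of Snrnp70, the U1 protein that contacts the 5′ splice site complex (2647 normalized counts per kb), followed by Sf3b1 (2044), the SR protein Srsf2 (1903), Sf3b2 (1840) and U2af2 (1596), which binds the polypyrimidine tract. The lowest level per kb was that of Lsm5 (83.6), a subunit of the LSm ring. The longest transcript need not be the one made, so that these levels are approximate. The coefficient of variation within a group, taken as the median over the 9 groups, was 2.32% for Sf3b2 and 2.98% for Srsf2 and reached 12.6% for Lsm5, 13.0% for Sf3b5 and 19.0% for Snrpg.

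To see whether the splicing machinery is set differently in the 3 regions, members were compared between regions within WT mice. Many members were higher in the striatum than in the cortex, by small amounts, and few were lower. With limma on log2(value + 1) and Benjamini-Hochberg adjusted p values under 0.05, 23 of 49 were higher in the striatum, where 30% of all 16708 genes tested were, and 2 were lower, where 29.3% were. The median log2 difference was 0.16 over the members and 0.01 over all genes, and 39 of the 49 members lay above 0, as did 50.9% of all genes. The share of members higher was thus larger than the background and the share lower smaller, while the differences were modest, from -0.43 to 0.56, where all genes ran from -1.54 to 1.45 between their 5% and 95% points. The 5 striatal and 5 cortical samples did not overlap for 20 members in the higher direction (22.9% of all genes) and 2 in the lower (23.4%). Leaving out 1 sample at a time, among them striatum WT replicate 5, gave 22 to 24 members higher and 2 to 3 lower.

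**Figure D1:**
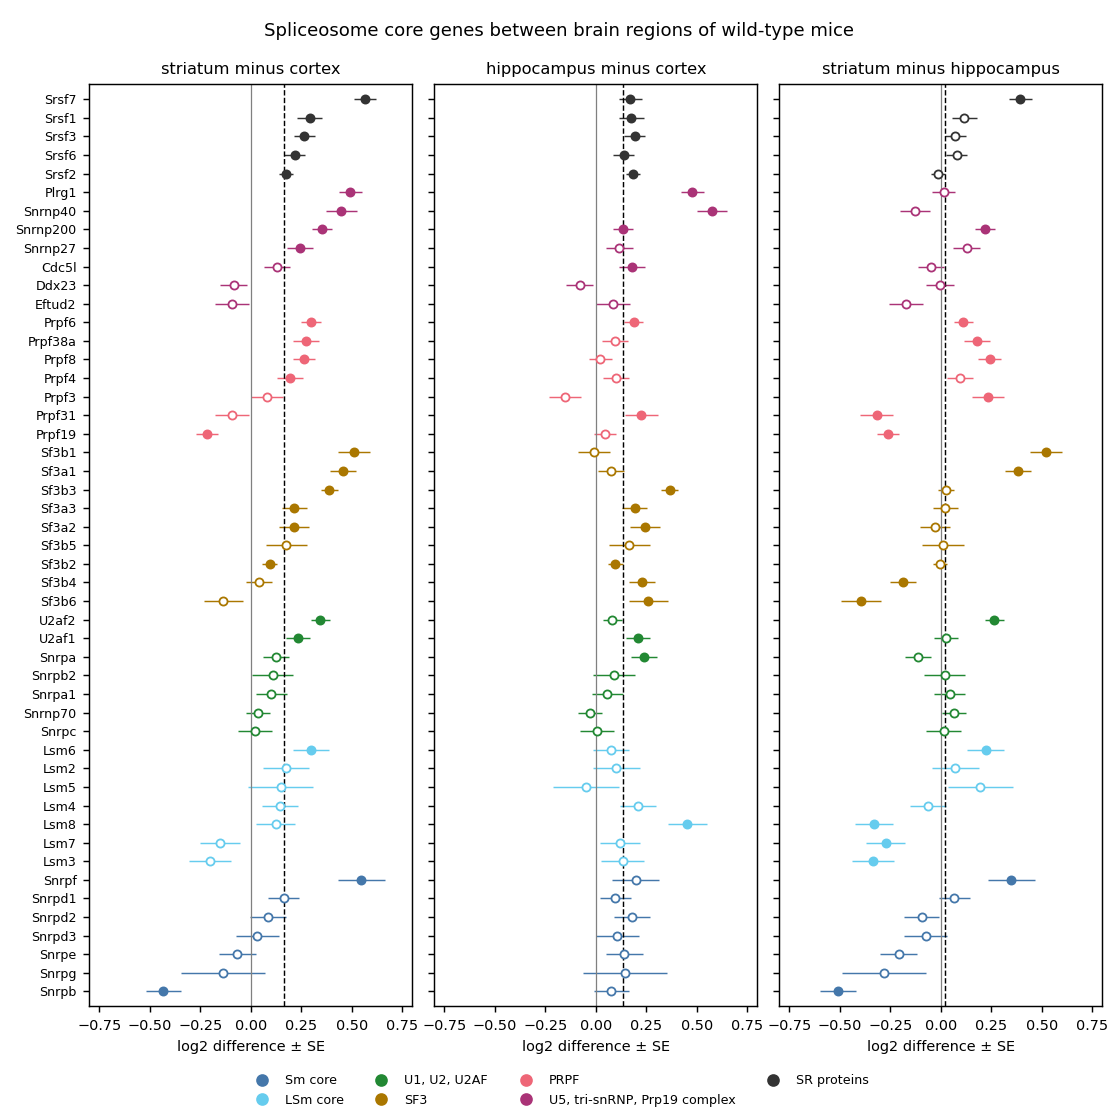
Log2 differences with standard errors (x axes) of the 49 members (y axis, by group) between the regions of WT mice, 5 samples per region. Filled points passed an adjusted p of 0.05, and the dashed line is the median of the members (0.16, 0.13 and 0.02). The 5 SR proteins are filled and to the right of 0 in both comparisons with the cortex, and the Sm and LSm points are mostly open.

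All 5 SR proteins were higher in the striatum than in the cortex, with a median log2 difference of 0.26. Srsf7, an SR protein that also takes part in export of messenger RNA (ENSMUSG00000024097, chr17:80200080-80207307), had 2459, 2405, 2539.6, 2854 and 2678 normalized counts in the WT cortex, 2906, 3006, 2846, 2817 and 2959 in the hippocampus, with 3972, 3735, 3825, 3838 and 3728 in the striatum. Every striatal sample was above every sample of the other regions, and cortex and hippocampus overlapped in 1 cortical sample. The log2 difference of Srsf7 was 0.56 ± 0.06 (SE) between striatum and cortex (limma, adjusted p = 9.9e-12) and 0.39 ± 0.06 between striatum and hippocampus (adjusted p = 7.6e-08). Srsf1, which promotes use of nearby 5′ splice sites, was higher in the striatum than in the cortex by 0.29 ± 0.06, Srsf3 by 0.26 ± 0.05, Srsf6 by 0.22 ± 0.05 and Srsf2 by 0.17 ± 0.04.

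Of the SF3 factors, 6 of 9 were higher in the striatum than in the cortex and none was lower, with a median log2 difference of 0.21. Sf3b1, the SF3B scaffold that clamps the helix between U2 and the branch point (ENSMUSG00000025982, chr1:54985169-55027481), had 7755, 9330.2, 9110.1, 9223 and 9078 normalized counts in the WT cortex, 6885, 9315, 10382, 8616 and 9299 in the hippocampus, with 12327, 12664, 13537, 13257 and 11528 in the striatum. The striatum did not overlap with either other region, and the means of cortex (8899.3) and hippocampus (8899.7) were alike. The log2 difference was 0.51 ± 0.08 between striatum and cortex (limma, adjusted p = 5e-07) and 0.52 ± 0.08 between striatum and hippocampus (adjusted p = 3.9e-07). Sf3a1, the SF3A subunit that binds U2 and later U1, was also higher in the striatum, by 0.45 ± 0.06 against the cortex and 0.38 ± 0.06 against the hippocampus, and the 5 striatal samples (2431, 2431, 2445, 3064 and 2214) lay above all cortical and hippocampal ones, of which the highest had 2021. Sf3b3, another SF3B subunit, had 1859.6, 1769.6, 1786, 1779 and 1898 in the cortex, 2440.1, 2377, 2295, 2383 and 2218 in the hippocampus, with 2411, 2330.3, 2400.0, 2463 and 2304 in the striatum. Here the cortex stood alone, with log2 differences of 0.39 ± 0.04 and 0.37 ± 0.04 to the other regions.

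Sf3b6, the small SF3B subunit next to the branch point adenosine, went the other way between striatum and hippocampus. It had 1112, 642, 754, 876 and 717 normalized counts in the WT hippocampus and 653, 559, 576, 652 and 626 in the striatum, a log2 difference of -0.40 ± 0.10 (limma, adjusted p = 0.00066). The groups overlapped, and the highest value was that of hippocampus WT replicate 1. Without that sample the log2 difference was -0.28, with a limma adjusted p of 0.0079.

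Among the PRPF factors, 4 of 7 were higher and 1 was lower in the striatum than in the cortex. Prpf8, the scaffold of the catalytic centre, was higher by 0.26 ± 0.06, Prpf6, which bridges U5 and U4/U6, by 0.30 ± 0.05, and Prpf38a, a factor that joins before catalysis, by 0.27 ± 0.06. Prpf19, the ubiquitin ligase of the Prp19 complex, was lower: it had 4109.6, 3864, 3863, 3749 and 3749 normalized counts in the cortex, 4602, 4199, 3737, 3817 and 3673 in the hippocampus, with 3275, 3326, 3425, 3207 and 3402 in the striatum. The striatum lay below all samples of both other regions, with log2 differences of -0.22 ± 0.05 to the cortex (limma, adjusted p = 0.00068) and -0.26 ± 0.05 to the hippocampus (adjusted p = 6.3e-05). Prpf31, which holds the tri-snRNP together, had 695, 613, 659, 618 and 601 in the striatum and 914, 808, 848, 693 and 723 in the hippocampus, which overlapped in 1 striatal sample, at a log2 difference of -0.32 ± 0.08 (limma, adjusted p = 0.00104).

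Of the 7 genes of the U5 particle, the tri-snRNP and the Prp19 complex, 4 were higher in the striatum than in the cortex. Plrg1, a WD-repeat protein of the Prp19 complex, had 634, 594, 662, 639.5 and 601 normalized counts in the WT cortex, 1039, 840.1, 828, 873 and 799 in the hippocampus, with 874, 839, 948, 915 and 830.3 in the striatum. Snrnp40, the WD-repeat protein of U5 (ENSMUSG00000074088, chr4:130360132-130390026), had 339.9, 312, 410.3, 327 and 346 in the cortex, 647, 484, 515, 471 and 479.9 in the hippocampus, with 498, 459, 475, 477 and 451 in the striatum. For both genes the cortex lay below every sample of the other regions. The log2 differences to the cortex were 0.49 ± 0.06 (striatum) and 0.48 ± 0.06 (hippocampus) for Plrg1 and 0.45 ± 0.08 and 0.58 ± 0.08 for Snrnp40, with limma adjusted p values of 2.1e-06 or below. Snrnp200, the helicase that unwinds U4 from U6, was higher in the striatum than in the cortex by 0.35 ± 0.05 and than in the hippocampus by 0.22 ± 0.05, whereas Eftud2, the U5 GTPase (-0.09 ± 0.08 against the cortex), and Ddx23, the helicase that displaces U1 (-0.09 ± 0.07), did not pass the test.

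U2af2 had 3189.8, 2849, 2971, 2969 and 3180.3 normalized counts in the WT cortex, 3504, 2860.0, 3313, 3251 and 3120.4 in the hippocampus, with 3830.3, 3728, 3755, 4151 and 3781 in the striatum, where every sample was above those of the other regions. U2af2 was higher in the striatum than in the cortex by 0.34 ± 0.05 and than in the hippocampus by 0.26 ± 0.05, and its partner U2af1, which reads the 3′ splice site dinucleotide, was higher than in the cortex by 0.23 ± 0.06 in the striatum and 0.21 ± 0.06 in the hippocampus. The 3 proteins of U1 and the 2 of U2 did not pass the test between striatum and cortex, with log2 differences from 0.02 for Snrpc to 0.12 for Snrpa.

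**Figure D2:**
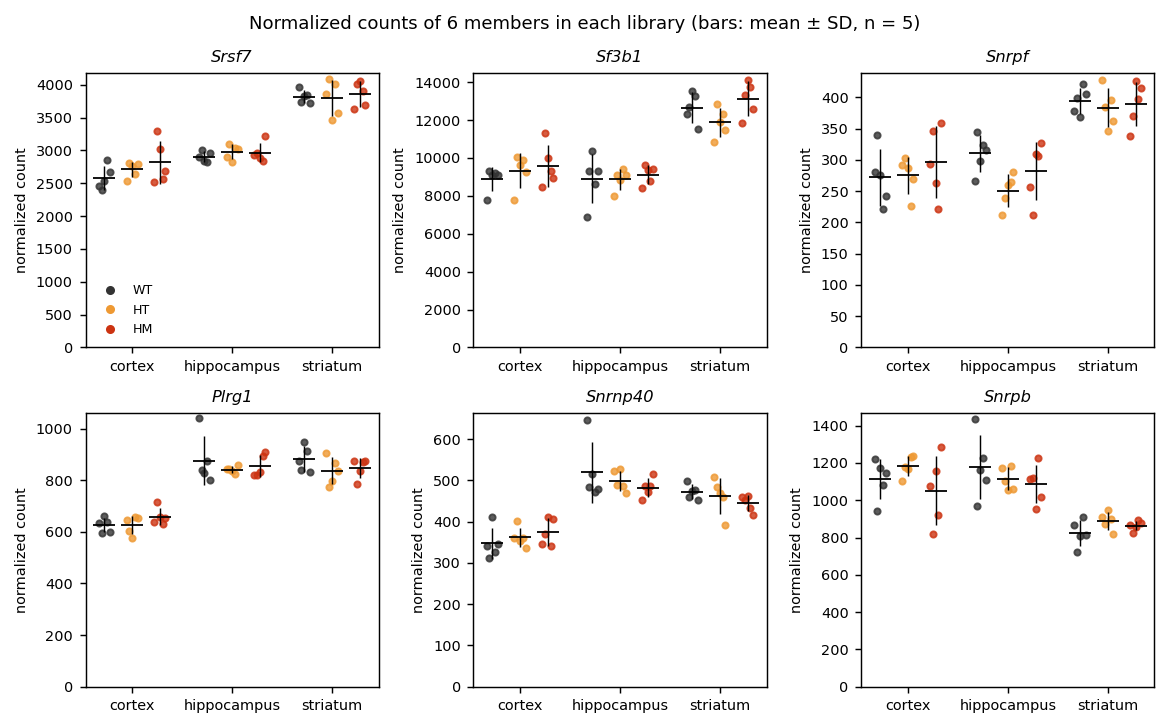
Normalized counts (y axes from 0) of 6 members in each of the 45 samples by region (x axes) and genotype (colour), with mean ± SD of 5 samples. Srsf7, Sf3b1 and Snrpf are highest in the striatum in all 3 genotypes, Plrg1 and Snrnp40 lowest in the cortex, and Snrpb lowest in the striatum.

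The Sm proteins differed among themselves although they form 1 ring. Snrpf had 281, 340.3, 276, 222 and 242 normalized counts in the WT cortex, 267, 345, 299, 324 and 316 in the hippocampus, with 378, 399.6, 368, 421 and 405 in the striatum, all striatal samples being above the rest. Snrpb, which encodes SmB and SmB′ (ENSMUSG00000027404, chr2:130171414-130179403), had 1223, 944, 1174, 1082 and 1146 in the cortex, 1435, 970.0, 1159.6, 1224 and 1109.9 in the hippocampus, with 868, 724, 808, 908 and 812 in the striatum, all striatal samples being below the rest. Between striatum and cortex the log2 differences were 0.55 ± 0.12 for Snrpf (limma, adjusted p = 8.3e-05) and -0.43 ± 0.09 for Snrpb (adjusted p = 4.5e-05), and between striatum and hippocampus 0.35 ± 0.12 and -0.51 ± 0.09. The other 5 Sm genes passed the test in none of the 3 comparisons, with striatum-cortex values from -0.14 ± 0.21 for Snrpg to 0.16 ± 0.08 for Snrpd1.

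Among the LSm proteins, Lsm8, the subunit particular to the U6 ring in the nucleus, was higher in the hippocampus than in both other regions. It had 401, 403, 341, 376 and 374 normalized counts in the WT cortex, 555, 476, 543, 469.8 and 553 in the hippocampus, with 439, 369.7, 442, 419.7 and 393 in the striatum. The hippocampus lay above all samples of both other regions, by 0.45 ± 0.10 against the cortex (limma, adjusted p = 0.00012), and the striatum differed from it by -0.33 ± 0.10 (adjusted p = 0.0032). Lsm6 was higher in the striatum, by 0.30 ± 0.09 against the cortex and 0.22 ± 0.09 against the hippocampus, and Lsm3 and Lsm7 were lower in the striatum than in the hippocampus, with log2 differences of -0.34 ± 0.11 and -0.27 ± 0.10. The call of Lsm7 was lost without hippocampus WT replicate 1 (-0.19) or 3 (-0.24). That of Lsm6 against the hippocampus was lost without striatum WT replicate 2 (0.16) or 5 (0.20) or hippocampus WT replicate 2 (0.21), 3 (0.21) or 4 (0.19).

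Between hippocampus and cortex of WT mice, 20 members were higher, against 23.3% of all genes, and none was lower, against 23.3% (limma; 0 members were lower at an unadjusted p under 0.05 as well, against 26.3%). The median was 0.13 over the members and 0.0056 over all genes, 44 members lay above 0, as did 50.7% of all genes, and the groups did not overlap for 11 members, against 32% of all genes in either direction. All 5 SR genes and 6 of 9 SF3 genes were among those higher, and no Sm gene was. Between striatum and hippocampus, 11 members were higher and 8 lower, against 27.8% and 28.3% of all genes, with a median of 0.02 and 28 members above 0 (49.8% of all genes), and the groups did not overlap for 10, against 38.5%. Of the members called, 1 of 25 between striatum and cortex, 8 of 20 between hippocampus and cortex and 6 of 19 between striatum and hippocampus lost the call in at least 1 fit without a sample. Among the SR genes these were Srsf1 (0.14 without cortex WT replicate 1, 0.13 without hippocampus WT replicate 2) and Srsf6 (0.12 without cortex WT replicate 2, 0.13 without hippocampus WT replicate 4), both between hippocampus and cortex. These 3 comparisons share samples in pairs and are not independent of each other. Across the members, the rank correlation of the log2 difference with transcript length was -0.31 between hippocampus and cortex (-0.09 over all genes). It was 0.29 between striatum and hippocampus (0.09) and 0.18 between striatum and cortex (0.01). The part of transcript length in the differences was not tested.

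The count for hippocampus and cortex depended in part on 1 library. Hippocampus WT replicate 1 had the highest value of its group for 30 of the 49 members, and its mean log2 level over the members, relative to all genes, was 1.77, where the other 4 had 1.496 to 1.586. In that sample Snrnp40 had 647, Plrg1 1039, Sf3b6 1112 and Snrpb 1435 normalized counts, while Sf3b1 had 6885, the lowest of its group. Its summed markers were the lowest of the group for hippocampal neurons (25191), astrocytes (96016), oligodendrocytes (138104), microglia (5466) and endothelium (4970) and the highest for cortical projection neurons (46669), and their part in the difference was not tested. Without it, 15 members were higher and 1 lower, with a median of 0.10, and between striatum and hippocampus 12 were higher and 6 lower, with a median of 0.066.

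**Figure D3:**
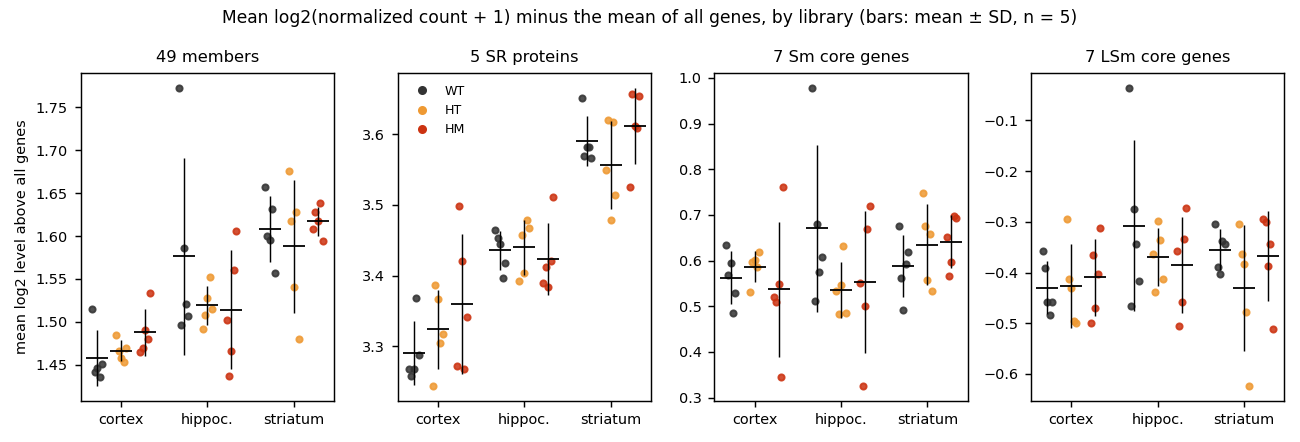
Mean log2(normalized count + 1) of the members minus the mean of all genes (y axes) in each sample, for all 49, the SR, the Sm and the LSm genes, with mean ± SD of 5 samples per group. In the WT groups the mean over the 49 members was 1.46 in the cortex, 1.58 in the hippocampus, with 1.61 in the striatum, and the high point of the WT hippocampus (1.77) is replicate 1.

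The region differences were then read in Shank3-HT and Shank3-HM mice, whose samples are separate from those of WT. Between striatum and cortex, 23 members were higher and 5 lower in Shank3-HT mice (29.5% and 29.1% of all genes) and 19 higher and 3 lower in Shank3-HM mice (28.8% and 28.6%). Of these calls, 7 of 28 in Shank3-HT and 3 of 22 in Shank3-HM mice were lost in at least 1 fit without a sample. The 18 members higher in all 3 genotypes made up 18 of the 23 in WT, of the 23 for Shank3-HT and of the 19 for Shank3-HM mice, and were the 5 SR genes, Sf3a1, Sf3a2, Sf3a3, Sf3b1, Sf3b3, Prpf6, Prpf8, Prpf38a, Plrg1, Snrnp40, Snrnp200, Snrpf and U2af2. They were 36.7% of the 49 members, and 23.5% of all genes were higher in all 3. Snrpb was the 1 member lower in all 3 (2.04%, against 23.8% of all genes), with log2 differences of -0.41 ± 0.09 for Shank3-HT and -0.27 ± 0.09 for Shank3-HM mice, and no member passed the test in opposite directions, as 0.0299% of all genes did. Srsf7 had 2539.9, 2816, 2763, 2637 and 2797 normalized counts in Shank3-HT cortices and 3867, 4092, 3465, 4011 and 3574 in their striata, and 2525, 3299.7, 3022, 2571 and 2685 against 3630.2, 4018, 4059.9, 3913 and 3688 in Shank3-HM mice, with log2 differences of 0.49 ± 0.06 and 0.46 ± 0.06. Sf3b1 differed by 0.35 ± 0.08 and 0.46 ± 0.08. For both genes every striatal sample was above every cortical one in both mutants.

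Snrpb had 1105, 1179, 1168, 1232 and 1239.6 normalized counts in Shank3-HT cortices and 910.2, 875, 946, 899 and 818 in their striata, which did not overlap. In Shank3-HM mice it had 1075, 821, 1155, 923 and 1283 in the cortices and 866, 825, 857, 895 and 878 in the striata, which overlapped through cortex Shank3-HM replicate 2, the sample with striatal markers. Without it the log2 difference of Snrpb was -0.35 ± 0.09 (limma, adjusted p = 0.000516), and without cortex Shank3-HM replicate 5 it was -0.19, with an adjusted p of 0.0644. Plrg1 had 636, 715, 659, 631 and 654 in Shank3-HM cortices and 819, 820.1, 832, 893 and 911 in the hippocampi of these mice, and Snrnp40 had 345, 369.7, 412, 342 and 407 in these cortices and 451, 487, 472, 485 and 515 in these hippocampi. The regions overlapped for neither gene.

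**Figure D4:**
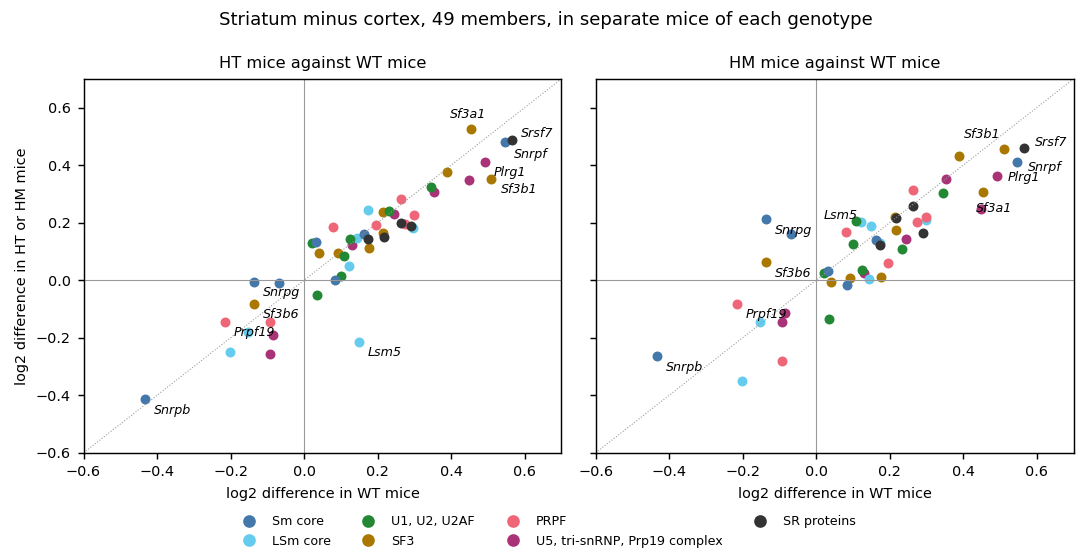
Log2 differences between striatum and cortex of the 49 members in WT mice (x axes) and in Shank3-HT (left) or Shank3-HM (right) mice (y axes), with the line of equality dotted. Members departed from the line by -0.36 to 0.13 (left) and by -0.20 to 0.35 (right). The SR points lie at 0.12 or above on both axes. Of the 49 members, 42 (85.7%) had the same sign in all 3 genotypes, near the 82.8% of all genes.

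Between hippocampus and cortex, 17 members were higher and 1 lower in Shank3-HT mice (22.9% and 22.1% of all genes) and 8 higher and none lower in Shank3-HM mice (21% and 21.2%; limma, with 1 lower at an unadjusted p under 0.05, against 24.5%). The 8 that were higher in all 3 genotypes, of 20 in WT, were Lsm8, Plrg1, Sf3a2, Sf3b3, Sf3b4, Snrnp40, Srsf2 and Srsf3. Their share, 16.3% of the members, was near the 16.2% of all genes. The number higher in Shank3-HT mice was 10 without hippocampus replicate 5 and 11 without cortex replicate 3. In at least 1 fit without a sample, 9 of 18 calls in Shank3-HT and 2 of 8 in Shank3-HM mice were lost. With quantile rescaling 13 were higher in Shank3-HM mice in place of 8. Lsm8 differed by 0.42 ± 0.10 for Shank3-HT and 0.47 ± 0.10 for Shank3-HM mice. Between striatum and hippocampus, 12 were higher in each mutant (26.4% and 26.7% of all genes) and 6 and 5 were lower (27.2% and 28.2%). The number lower was 3 for Shank3-HT mice without striatum replicate 5 and 3 for Shank3-HM mice without hippocampus replicate 5. Calls between striatum and hippocampus that were lost in at least 1 fit without a sample were 6 of 18 and 4 of 17. Higher in all 3 genotypes were 9 members, Lsm6, Prpf3, Prpf38a, Prpf8, Sf3a1, Sf3b1, Snrpf, Srsf7 and U2af2, and lower were 4, Lsm8, Prpf31, Sf3b4 and Snrpb. These were 18.4% and 8.16% of the members, against 20.7% and 21.8% of all genes. Prpf19 differed between striatum and cortex by -0.08 ± 0.05 in Shank3-HM mice and did not pass the test, and without striatum Shank3-HM replicate 5 (4190.0, others 3385 to 3505) the difference was -0.14, with a limma adjusted p of 0.0212. In Shank3-HT mice Prpf19 differed by -0.14 ± 0.05 and passed, but not without striatum replicate 2, 4 or 5 or cortex replicate 1, where the difference was -0.13, -0.13, -0.13 and -0.12. Leaving out cortex Shank3-HM replicate 2, striatum Shank3-HT replicate 5 and hippocampus WT replicate 1 together gave 26 higher and 4 lower between striatum and cortex in Shank3-HT mice and 22 and 4 in Shank3-HM mice.

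Cell type markers moved with the regions as well. Of 6 neuronal markers 5 were lower and 1 higher in the striatum than in the cortex of WT mice, and their sum ran from 212321 to 220321 normalized counts in the cortex, from 140756 to 164844 in the hippocampus and from 123427 to 131835 in the striatum. All 6 oligodendrocyte markers were higher in the striatum, with sums of 64424 to 84137, 138104 to 150702 and 180167 to 238758 in the same order, and all 6 astrocyte markers were lower in the striatum than in the cortex. All 6 choroid plexus markers were higher in the hippocampus than in the cortex, with sums of 3145 to 123200 against 76.2 to 158. Without hippocampus WT replicate 4, the highest of these, 18 members were higher and none lower between hippocampus and cortex. None of these markers was at 0 in all samples of any group. Their part in the region differences of the members was not tested.

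Other splicing genes were read from 8 lists with 147 genes, of which 77 were higher and 24 lower in the striatum than in the cortex of WT mice, with a median of 0.18, where 30% of all genes were higher and 29.3% lower. Of 24 hnRNP genes, whose proteins coat nascent RNA and often oppose SR proteins, 19 were higher and none lower. Of 44 catalytic and late factors 20 were higher and 2 lower, and of 16 genes for snRNP assembly 6 were higher and 2 lower. The other SR and SR-related genes gave 9 higher and 3 lower of 13, the minor spliceosome 5 and 3 of 10, the SR kinases 3 and 2 of 9, and the Sm and LSm paralogs 2 and 3 of 7. The 24 neuronal splicing regulators split into 13 higher and 9 lower and held larger differences than any member. Srrm4, which drives neuronal microexon use, had a mean of 1929 normalized counts in the cortex and 464 in the striatum (log2 difference -2.06 ± 0.09), Elavl4 had 3011 and 513 (-2.62 ± 0.17), and Lsm11, a subunit of the U7 particle for histone messenger RNA, had 902 and 143 (-2.70 ± 0.14). Khdrbs3 was lower in the striatum than in the hippocampus (-1.57 ± 0.10). Nova1 and the SR kinase Srpk1 were lower in the hippocampus than in the cortex (-1.18 ± 0.09 and -0.65 ± 0.06).

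To see whether loss of 1 or 2 Shank3 copies changed the splicing machinery, the mutants were compared with WT mice within each region. No member passed the test in any of the 6 comparisons of a mutant with WT or the 3 between mutants (limma, Benjamini-Hochberg adjusted p). The background was also low. Of all genes, 0% passed for Shank3-HT and 0.0121% for Shank3-HM mice against WT in the cortex and 0.00606% between the mutants. The hippocampus had 0.00603% in each of its comparisons, and the striatum 0.00607%, 0.182% and 0.14% in the same order. At an unadjusted p under 0.05 (limma) there were 0, 2 and 2 members in the cortex, against 2.68%, 5.49% and 4.87% of all genes, 2, 0 and 0 in the hippocampus, against 5.26%, 4.73% and 2.09%, and 1, 2 and 2 in the striatum, against 7.43%, 7.43% and 6.49%. The share of members was in no comparison above that of all genes. The smallest adjusted p of a member against WT was 0.468 (limma), for Snrpe in the striatum of Shank3-HM mice. The groups did not overlap for 1 member each in cortex and striatum of Shank3-HM mice (0.8% and 1.86% of all genes) and for 0 members in the cortex of Shank3-HT mice (0.63%), their striatum (0.971%) and the hippocampus of both mutants (0.797% for Shank3-HT and 0.736% for Shank3-HM). The standard error of a member's log2 difference had a median of 0.07 to 0.08 and reached 0.23 for a member of the hippocampus. In data simulated for the Shank3-HM comparisons with WT, the fit recovered 54% to 68% of changes of log2 0.5. For changes of log2 1 it recovered 79% to 89%. Smaller differences could thus be missed, and not only for the most variable members.

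**Figure D5:**
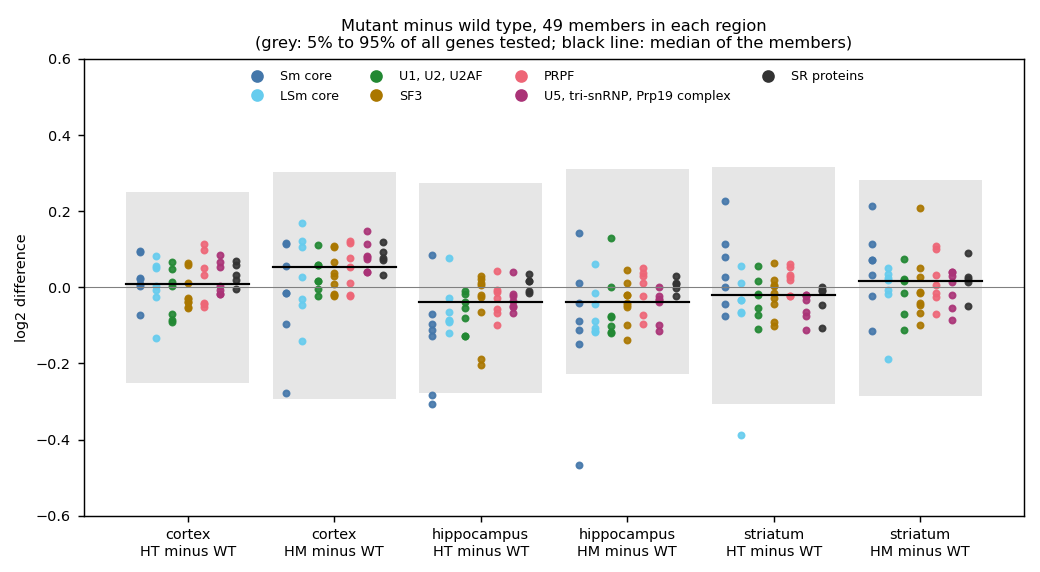
Log2 differences (y axis) between mutant and WT mice of the 49 members, coloured by group, in the 6 comparisons (x axis). Grey boxes span the 5% to 95% points of all genes tested, and black lines are the medians of the members, from -0.04 in the hippocampus to 0.05 in the cortex of Shank3-HM mice. None of the points passed the test.

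In the cortex the median log2 difference of the members was 0.0093 for Shank3-HT mice (29 of 49 above 0, where 49.6% of all genes were) and 0.053 for Shank3-HM mice (35 above 0, where 49.1% were), and that of all genes -0.0011 and -0.0025. The members with the smallest p in Shank3-HT cortices were Prpf38a (0.10 ± 0.06) and Prpf31 (0.11 ± 0.07), and neither passed at an unadjusted p under 0.05. Without cortex WT replicate 3 or 4 the value of Prpf31 was 0.07 or 0.06. Cdc5l, the DNA- and RNA-binding subunit of the Prp19 complex, had 1308, 1307, 1283, 1256 and 1259 normalized counts in WT, 1347, 1291, 1125, 1297 and 1286 in Shank3-HT and 1472, 1357, 1359, 1526 and 1393 in Shank3-HM cortices. All 5 Shank3-HM samples lay above all WT and Shank3-HT samples, and the log2 difference to WT was 0.15 ± 0.05 (limma, adjusted p = 0.878). Sf3a1 had 1863, 1973, 1899, 2062 and 2060.2 in Shank3-HM cortices and 1782, 1894, 1759.6, 1827 and 1867 in WT, which overlapped (0.11 ± 0.05, limma adjusted p = 0.878). Without cortex Shank3-HM replicate 2 the median for Shank3-HM mice was 0.044, with 37 members above 0.

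In the hippocampus the members lay slightly below WT, with medians of -0.04 for both mutants. Above 0 were 11 members for Shank3-HT and 15 for Shank3-HM mice, where 52% and 51.5% of all genes were. The shift depended on hippocampus WT replicate 1, which both comparisons share. Without it the medians were -0.0036 and -0.013, with 22 and 21 members above 0. Snrpf had 267, 345, 299, 324 and 316 normalized counts in WT and 211, 238, 259.9, 264 and 280.0 in Shank3-HT mice, which overlapped (log2 difference -0.31 ± 0.12, limma adjusted p = 0.926). Snrpa, the U1 protein that binds a stem-loop of the U1 RNA, differed by -0.13 ± 0.06 for Shank3-HT and -0.12 ± 0.06 for Shank3-HM mice (limma adjusted p = 0.926 and 0.920). Snrpg, the smallest Sm protein, had 416, 184, 286, 246 and 233 in WT and 233, 124, 163, 213 and 247 in Shank3-HM mice, a difference of -0.47 ± 0.23 that did not pass the test. Its highest value was again that of WT replicate 1, without which the difference was -0.30.

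In the striatum the medians were -0.02 for Shank3-HT and 0.02 for Shank3-HM, with 19 and 28 members above 0 (48% and 50.3% of all genes). Snrpe had 248, 265, 232, 263 and 271 normalized counts in WT and 297, 298, 266, 309 and 314 in Shank3-HM mice, 4 of which were above every WT sample (0.21 ± 0.08, limma adjusted p = 0.468). Sf3b6 had 653, 559, 576, 652 and 626 in WT and 751, 745, 605, 654 and 795 in Shank3-HM mice, which overlapped (0.21 ± 0.08, limma adjusted p = 0.569). Sf3b2, the member with the smallest spread, had 5899, 5852, 6032, 5890.2 and 5971 in WT and 5828, 5713, 5783, 5824 and 5543 in Shank3-HM mice, which did not overlap, at a log2 difference of -0.05 ± 0.03 (limma, adjusted p = 0.841). Lsm5, the lowest member, had 72.2, 50.4, 66.04, 61.8 and 65.95 in WT and 56.7, 58.4, 61.1, 37.8 and 32.5 in Shank3-HT mice (-0.39 ± 0.18, limma adjusted p = 0.668), and without striatum Shank3-HT replicate 5 the log2 difference of Lsm5 was -0.25. Snrpb differed by 0.11 ± 0.06 between Shank3-HT and WT mice (limma adjusted p = 0.732) and by 0.07 without striatum WT replicate 2. Striatum Shank3-HT replicate 5 had the lowest value of its group for 21 of the 49 members, and without it the median for Shank3-HT mice was 0.0029, with 26 above 0.

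Whether the effect of genotype differed between regions was tested in the fit of all 9 groups. No member passed in any of the 6 comparisons, for Shank3-HT or Shank3-HM mice, where 0% of all genes passed in 4 of them and 0.0539% (striatum against cortex) and 0.0718% (striatum against hippocampus) in the others for Shank3-HM mice. At an unadjusted p under 0.05 (limma) the members for Shank3-HT mice numbered 0 for striatum against cortex (3.46% of all genes), 1 for hippocampus against cortex (3.35%) and 2 for striatum against hippocampus (5.6%), and for Shank3-HM mice 0, 1 and 2 in the same order (5.42%, 4.45% and 5.37%). U2af1 had the smallest p, with an effect of Shank3-HM that was lower in the hippocampus than in the cortex by -0.21 ± 0.08 (limma, adjusted p = 0.999). Of the 147 other splicing genes none passed between a mutant and WT in any region, where 0% to 0.182% of all genes did. Per comparison, 2 to 11 of the 147 had an unadjusted p under 0.05 (limma), against 2.68% to 7.43% of all genes.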

How the data were processed

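Bulk RNA-seq of 45 samples was used. The authors quantified reads with Salmon 1.1.0 (GRCm38, GC bias correction), summed them per gene with tximport, scaled them with DESeq2 1.26.0 in R 3.6.2 and deposited the normalized counts, a signal unit and not raw counts. Whole reads could not be recovered (under the best step 11.9% to 27.9% of values lay within 0.05 of a whole multiple, where 10% would by chance), so no count test was run and depth is unknown. The columns coded KI were taken as the Shank3-HM mice that the labels call knock-out.

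Values were transformed as log2(value + 1), which understates fold changes of low genes. Genes with a mean of at least 10 entered the tests, for genotypes 16507 (cortex), 16571 (hippocampus) and 16482 (striatum) with 15 samples per fit, and 16708 in 1 fit of 9 groups for regions and interactions. Tests were made with limma 3.58.1 (intensity trend) in R 4.3.3, with Benjamini-Hochberg adjustment over all genes tested and a threshold of 0.05. The fit was tested on simulated data. The members and lists were chosen with earlier results of these data known, so lists are described by counts and medians.

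Named were Shank3, the 3 members with the largest passing difference in each direction per WT region comparison, the 2 with the smallest p per comparison of a mutant with WT, the highest and lowest member of each group between striatum and cortex, any member past the threshold between genotypes, and the 3 largest passing differences of the other lists per region comparison. The remaining members named to fill out a group, among them Sf3b2 and Sf3b3, were chosen after their values were seen. Alternatives were a pseudocount of 0.1, a mean filter of 100 or none, no trend, quantile or median-of-ratios rescaling, a fit of only the groups compared, a replicate block, and leaving out each sample. Leaving out the 3 libraries that stand apart was added after seeing the data. Promoters came from RefSeq (GRCm38.p6), gene positions and transcript lengths from GENCODE (GRCm38).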

Additional observations from a re-analysis of the deposited data

Results flagged for a closer look

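Of 234 groups of 5 samples tested (each of the 24 members named by rule, Shank3 and the mean over the members, in each region and genotype), 16 (6.84%) had 1 sample far from the other 4 by Dixon's test, where chance flags about 1 in 20. In the WT hippocampus replicate 1 was high for Snrnp40 (647, others 471 to 515 normalized counts) and Snrpe (379, others 262 to 291). In the WT striatum replicate 4 was high for Sf3a1 (3064, others 2214 to 2445) and U2af2 (4151, others 3728 to 3830). In the WT cortex replicate 1 was low for Sf3b1 (7755, others 9078 to 9330) and high for the mean log2 level of the members (1.51, others 1.44 to 1.45).

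Striatum Shank3-HM replicate 5 was high for Prpf19 (4190.0, others 3385 to 3505) and Cdc5l (1771, others 1328 to 1416) and low for U2af2 (3635, others 3924 to 4037) and Shank3 (4569, others 5883 to 6242). Striatum Shank3-HM replicate 2 was high for Sf3a1 (2767, others 2290 to 2412). Replicate 1 of Shank3-HT mice was high for Prpf19 in the cortex (4054, others 3606 to 3721) and the hippocampus (3969, others 3627 to 3707). Cdc5l was low in cortex Shank3-HT replicate 3 (1125, others 1286 to 1347), Lsm3 in cortex Shank3-HM replicate 3 (229, others 271 to 288) and Snrpc in hippocampus Shank3-HM replicate 2 (451, others 506 to 525).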

How the results depend on the processing

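Of the 35 differences of genes named by the rule that were recomputed under the alternatives, none changed direction, and neither did any of the 175 region differences of members that passed the test. Of all 441 region differences of members 85 changed sign under at least 1 alternative, and of the 294 differences between mutants and WT, none of which passed, 138 did. Medians of the members that lay near 0 did cross it when 1 sample was left out, among them these: the median for Shank3-HT mice against WT ran from -0.031 to 0.0029 in the striatum and from -0.0026 to 0.019 in the cortex, and that between striatum and hippocampus of WT mice from -0.0004 to 0.066 and of Shank3-HT mice from -0.0047 to 0.036. Of the counts and medians of the members and the Shank3 tests, 693 values stayed within 1.5 times (counts), within 1 SD between replicates (medians) or on their side of the threshold (Shank3) under the alternatives that keep every sample or leave out the 3 libraries, 4 counts moved and 5 Shank3 tests no longer passed. The 35 differences of named genes kept theirs. Quantile rescaling gave 13 members higher between hippocampus and cortex of Shank3-HM mice (8 in the report) and 3 lower between striatum and cortex of Shank3-HT mice (5 in the report). The replicate block gave 1 lower between hippocampus and cortex of Shank3-HM mice, and leaving out the 3 libraries that stand apart gave 1 lower in WT mice (0 in the report for both). Shank3 in the striatum of Shank3-HT mice (limma adjusted p = 0.0494) did not pass with median-of-ratios rescaling (log2 difference -0.49), no filter (-0.50), no trend (-0.50), a pseudocount of 0.1 (-0.50) or without the 3 libraries (-0.47), nor in 9 of 10 fits without 1 sample (-0.53 to -0.47). The cause was not tested.

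Leaving out 1 sample at a time, members lower between hippocampus and cortex ranged from 0 to 1 in WT (1 without hippocampus WT replicate 1), 0 to 3 in Shank3-HT (3 without cortex replicate 1, 2 without hippocampus replicate 5, 0 without cortex replicate 5) and 0 to 1 in Shank3-HM mice (1 without cortex replicate 1 or hippocampus replicate 5). Members higher there ranged from 10 to 16 in Shank3-HT mice (10 without hippocampus replicate 5, 11 without cortex replicate 3). Members lower between striatum and cortex ranged from 3 to 5 in Shank3-HT mice (3 without cortex replicate 1 or 5 or striatum replicate 2 or 5) and from 3 to 5 in Shank3-HM mice (5 without striatum replicate 5), and between striatum and hippocampus from 3 to 6 (3 without striatum Shank3-HT replicate 5) and from 3 to 5 (3 without hippocampus Shank3-HM replicate 5). The counts for genotypes and interactions stayed at 0 members under every alternative run.

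Correlations of the deviations of same-numbered samples ran from -0.100 to 0.225 between regions of a genotype and from -0.119 to 0.150 between genotypes of a region, over 45 pairs each, with 16 and 7 over 0.1. Of the 45 pairs between regions, 28 matched best with their own number. Of the 45 pairs between genotypes, which are of different mice, 12 did. This is a hint from the data that numbers may mark 1 mouse across regions. Since the labels do not say so and not every pair was over 0.1, the samples were not taken as paired. The replicate block moved no other count by over 1.5 times and changed no call of a named gene. Depth is unknown.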
